A study of Mus musculus with 4 samples.

Results

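The 39 Hox genes of mouse back-skin epidermis were measured by bulk RNA sequencing in Irx5 knockout and wild-type mice. They are every row of the deposited expression table whose symbol is Hox, a cluster letter from a to d and a number, at any level, 39 of 23847 rows in all, with 11 genes in HoxA, 10 in HoxB, 9 in HoxC and 9 in HoxD. Irx5KO mice (Irx5-/-, n = 2 libraries) were compared with WT mice (Irx5+/+, n = 2 libraries), all at postnatal day 20. IRX5 is an Iroquois homeodomain factor, which the series title links to DNA repair and to hair follicle stem cells. Trypsin (0.25%, 2 h, 34 °C) loosened the back skin, its epidermis was peeled off mechanically and strained, and only RNA of an integrity number above 8 went into single-end sequencing. The labels call the material primary epithelial cells. They give neither the sex, strain and litter of the mice nor the structure of the Irx5 allele. Nothing in them says which cells carry the disruption beyond the genotype of the mouse.

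Hox genes encode homeodomain transcription factors that give cells along the body axis a positional identity. In mammals they lie in 4 clusters, and genes of different clusters that descend from a common ancestor form paralogue groups numbered 1 to 13. Within a cluster, genes at the 3′ end (low numbers) are expressed further towards the head and genes at the 5′ end (high numbers) further towards the tail and the tips of the limbs. In skin, regional Hox codes are best known from human dermal fibroblasts, and in mouse Hoxc13 is needed in the hair follicle and nail for hair and nail keratins. Hox proteins bind DNA with cofactors of the Pbx, Meis and Pknox families, while Polycomb proteins keep unused clusters silent and trithorax proteins keep used ones active.

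Levels are given as FPKM (fragments per kilobase of transcript, relative to the size of the mapped library), which are per length and can be compared between genes. A change is the difference of mean log2(FPKM + 1), Irx5KO minus WT, a scale that compresses the changes of weakly expressed genes. Tests are from limma with Benjamini-Hochberg adjustment over the 11643 rows with at least 1 FPKM in at least 2 of the 4 libraries, and a gene was called at an adjusted p below 0.05. The depth, estimated from steps in the low values, was about 53920000 and 52480000 fragments in the Irx5KO libraries and 54120000 and 60160000 fragments in the WT libraries, so that 1 FPKM on a transcript of 2000 bases stood for about 94.5 to 108 fragments. Irx5 itself was at 10.01 and 10.08 FPKM in Irx5KO, against 17.4 and 16.4 FPKM in WT, which is 59.5% of the WT mean (log2 change -0.70, SE 0.162, adjusted p = 0.0117, limma). The call was lost without Irx5KO replicate 1 (adjusted p = 0.107), without Irx5KO replicate 2 (adjusted p = 0.0923) and after rescaling to TPM (adjusted p = 0.0594), and a value over the whole gene does not show which part was deleted. Xist was at 0.0606 and 0.0459 FPKM in Irx5KO, against 36.6 and 33.9 FPKM in WT, and the Y-linked gene Eif2s3y at 70.9 and 75.7 FPKM in Irx5KO, against 0.0350 and 0.0422 FPKM in WT. Sex and genotype therefore cannot be told apart in any result below. All 9 keratinocyte markers examined were at 44.5 FPKM or more in each of the 4 libraries, with Krt14 called lower and Trp63 called higher in Irx5KO.

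Back-skin epidermis used the 3′ and middle parts of 3 Hox clusters. A gene was counted as on at 1 FPKM or more in at least 2 of the 4 libraries, and 18 of the 39 Hox genes were on, 15 of them in all 4 libraries. In HoxA these included Hoxa2 to Hoxa7, in HoxB those from Hoxb2 to Hoxb8 (7 of 10), and in HoxC Hoxc4, Hoxc6, Hoxc8 and Hoxc13 (4 of 9). None of the 9 HoxD genes was on. Of the 21 genes that were off, Hoxa11, Hoxa13, Hoxb13, Hoxd1 and Hoxd12 were listed at 0 in all 4 libraries, 10 were above 0 in some library but under 0.1 FPKM in all, and the other 6 (Hoxa9, Hoxb9, Hoxc5, Hoxc9, Hoxd4 and Hoxd8) reached 0.1 FPKM in at least 1 library. In bulk RNA, fewer cells that express a gene and less RNA per cell cannot be told apart.

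**Figure D1:**
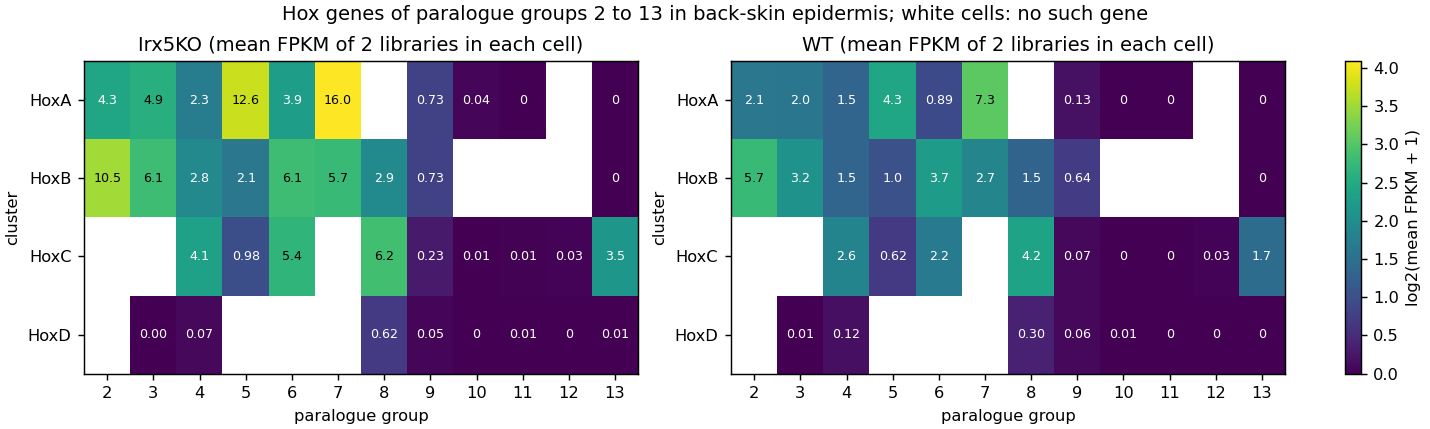
Mean level of each Hox gene in Irx5KO (left) and WT (right) epidermis, n = 2 libraries each, with the clusters down the page and paralogue groups 2 to 13 across. Colour gives log2(mean FPKM + 1), the printed figure is the mean FPKM, and white cells have no such gene. Most levels above 1 FPKM lie in groups 2 to 8 of HoxA, HoxB and HoxC, and Hoxc13 is the one gene of groups 9 to 13 above 1 FPKM.

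By level, Hoxa7, Hoxa5 and Hoxb2 led, with means over all 4 libraries of 11.7, 8.48 and 8.11 FPKM. From each gene to the next in the order of these means, the libraries of at least 1 genotype overlapped, with few exceptions, among them Hoxa9 and Hoxc9, which lay apart in both genotypes. The order within the middle of the range was therefore not resolved by these 4 libraries.

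Paralogue group 7, which holds Hoxa7 and Hoxb7, had the highest summed level. It came to 25.2 and 18.3 FPKM in Irx5KO, against 13.5 and 6.44 FPKM in WT. Groups 2 to 8 each had at least 2 genes on, whereas in group 13 only Hoxc13 was on. In group 9 no gene reached 1 FPKM in any library, although its 4 members summed to 2.07 and 1.40 FPKM in Irx5KO, against 0.734 and 1.07 FPKM in WT. Groups 10, 11 and 12, whose genes pattern the lumbar to tail axis and the limbs, were all but silent, with 0.0601 FPKM (Hoxc12 in Irx5KO replicate 2) as the highest value of any member in any library.

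The limit between on and off genes was sharp in HoxA and HoxC and shallow in HoxB. In HoxA, Hoxa7 and Hoxa9 are neighbours with 1245 bases between them in the annotation, and the level of Hoxa7 was 19.9 and 26.4 times that of Hoxa9 in Irx5KO and 57.5 and 50.5 times in WT. In HoxC the step fell between Hoxc8 and Hoxc9, 5507 bases apart, with Hoxc8 at 39.4 and 20.0 times Hoxc9 in Irx5KO and 106 and 37.7 times in WT. In HoxB, Hoxb8 exceeded Hoxb9, 5309 bases away, by 3.29 and 4.85 times in Irx5KO and by 3.78 and 1.60 times in WT. At the 3′ end of HoxB the drop was steep again. Hoxb2 stood 352 and 1044 times above Hoxb1 in Irx5KO and 112 and 48.3 times above it in WT, across 11739 bases.

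Just under the threshold of 1 FPKM, Hoxc5 was at 0.990 and 0.962 FPKM in Irx5KO, against 0.882 and 0.366 FPKM in WT. Hoxb9 was at 0.870 and 0.586 FPKM in Irx5KO, against 0.432 and 0.839 FPKM in WT. The genotypes overlapped for Hoxb9 and not for Hoxc5. Hoxa9 was at 0.988 and 0.468 FPKM in Irx5KO, against 0.177 and 0.0878 FPKM in WT. Hoxd8, the highest gene of its cluster, was at 0.666 and 0.578 FPKM in Irx5KO, against 0.256 and 0.339 FPKM in WT. For both of these genes the Irx5KO libraries lay above the WT libraries. Lower still, Hoxc9 was at 0.170 and 0.289 FPKM in Irx5KO, against 0.0483 and 0.0873 FPKM in WT. Hoxd4 was at 0.0703 and 0.0645 FPKM in Irx5KO, against 0.0698 and 0.168 FPKM in WT, with overlapping genotypes. The off genes did not enter the test. Fitted without any filter on level, 16 of the 21 could be fitted, and limma called only Hoxd8 (log2 change 0.32, adjusted p = 0.0491), against 6.98% of all 18467 rows called higher there. Hoxa9 did not pass (adjusted p = 0.0868). Hoxb1 was the gene whose libraries lay the other way round, at 0.0295 and 0.0101 FPKM in Irx5KO, against 0.0683 and 0.0793 FPKM in WT, and it did not pass either (adjusted p = 0.0798).

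The Hox genes that were on were higher in Irx5KO than in WT across all 3 clusters. Of the 18 tested, 15 were called higher (83.3%) and none lower, and 3 (Hoxa4, Hoxc4 and Hoxc8) were not called, where 26.9% of all rows tested were called higher and 9.22% lower. At an unadjusted p below 0.05 the counts were 17 higher and 0 lower, but the share of all rows at that threshold was not computed. The ratio of the Irx5KO mean to the WT mean ranged from 1.48 (Hoxc8) to 4.35 (Hoxa6) with a median of 2.04, and the median log2 change was 0.78, against 0.26 over all rows tested. For all 18 genes both Irx5KO libraries lay above both WT libraries, as they did for 54.3% of all rows. One of the 18 genes entered the test through the Irx5KO libraries alone and so had to differ. With 2 libraries against 2, an exact permutation test cannot give a p below 0.333, so every call here rests on the variance that limma pools across rows.

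The number of calls depended on the filter on level, on scaling and on single libraries. The direction did not change with scaling, the one kind of setting that could have changed it. With no filter 3 of 34 Hox genes were called higher, against 6.98% of all rows, and 2 of these 3 were among the 18 genes on. Scaling by the median of ratios moved the median change of all rows to -0.01 and that of the Hox genes to 0.53. Under it 6 of 18 Hox genes were called higher (among them Hoxa3, Hoxa5, Hoxa6, Hoxb7 and Hoxc6) and 10.5% of all rows, and over all rows the calls were 1224 higher and 1629 lower, against 3127 higher and 1073 lower in the deposited FPKM. Quantile normalization called the same 6 Hox genes and 13.1% of all rows. Without Irx5KO replicate 1 the Hox calls numbered 7 of 17 (11.1% of all rows), without Irx5KO replicate 2 they numbered 8 of 17 (12.1%), without WT replicate 2 they numbered 10 of 18 (22.7%) and without WT replicate 1 they numbered 17 of 18 (36.1%). Rescaling to TPM called 20 of 21 Hox genes and 46.0% of all rows, and with a mean of at least 5 FPKM 3 of 4 were called, against 23.6%. All 236 fitted changes of the genes on over the 14 settings were above 0. Each of these genes had both Irx5KO libraries above both WT libraries. Only rescaling (median of ratios, TPM or quantiles) could therefore have changed a sign.

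**Figure D2:**
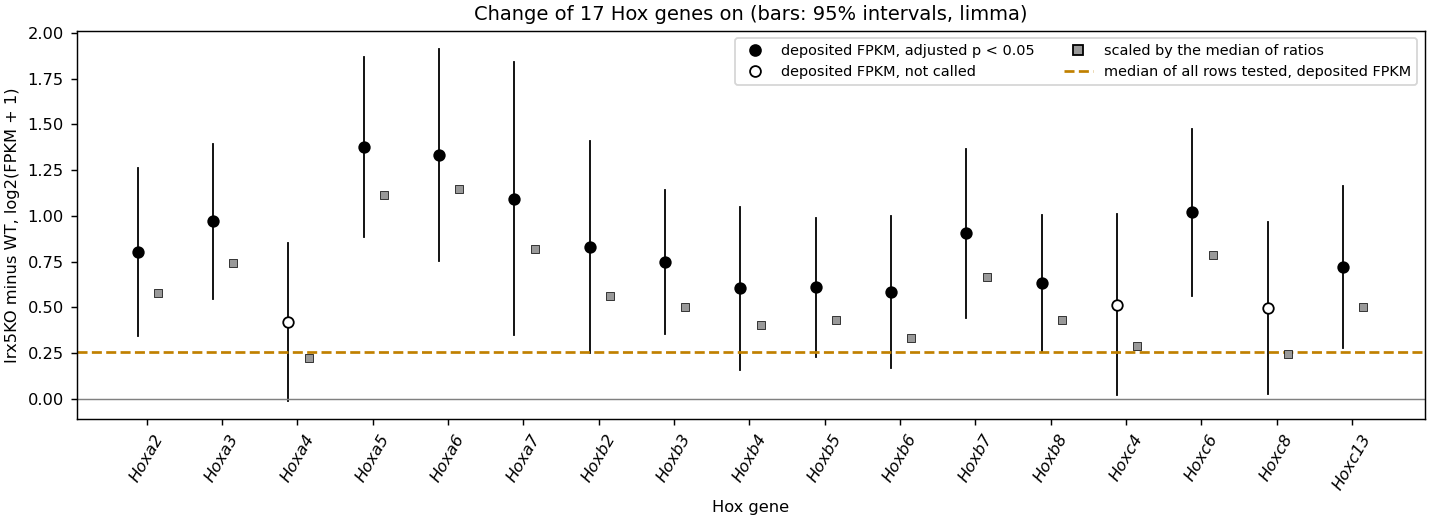
Log2 change of 17 of the Hox genes on (Irx5KO minus WT, in units of log2(FPKM + 1)), n = 2 libraries each. Circles are the deposited FPKM with 95% intervals from limma (filled, adjusted p below 0.05), squares are the same changes after scaling by the median of ratios, and the dashed line is the median of all rows tested, 0.26. Hoxa5 and Hoxa6 lie highest, and the squares of all 17 genes stay above 0.

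The 2 WT libraries differed from each other along the same line as the genotypes. WT replicate 1 was above WT replicate 2 for 17 of the 18 genes, with Hoxc13 as the exception, and the median ratio of replicate 1 to replicate 2 was 1.64 (range 0.794 to 2.29). Over all rows tested that ratio had a median of 1.09, and WT replicate 1 was the higher for 62.1% of them. Between the Irx5KO libraries, replicate 1 was above replicate 2 for 15 of the 18, with a median ratio of 1.14, but the values over all rows were not computed there. The 18 genes thus moved together between the WT replicates as well, and their calls are not independent of each other.

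**Figure D3:**
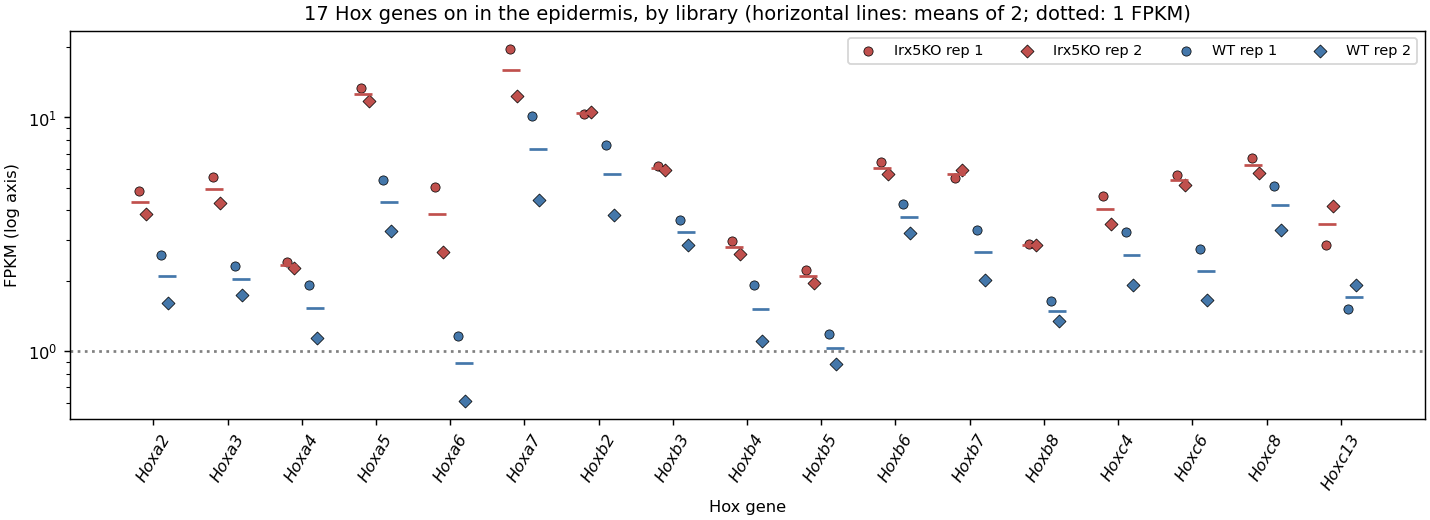
FPKM of 17 of the Hox genes on in each library on a log axis, Irx5KO in red and WT in blue, replicate 1 as circles and replicate 2 as diamonds, with short lines at the means of 2. The red points lie above the blue points for every gene, and WT replicate 2 is the lowest library for all but Hoxc13.

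The HoxA genes lie on chromosome 6 (mm10, minus strand), with Hoxa2 at 52162417 to 52164831 and Hoxa13 at 52257694 to 52260880, and carried the largest changes. The anterior genes of the cluster are needed in the hindbrain and the pharyngeal arches. Hoxa2, which sets the identity of the second pharyngeal arch, was at 4.83 and 3.85 FPKM in Irx5KO, against 2.57 and 1.61 FPKM in WT (log2 change 0.80, SE 0.203, adjusted p = 0.0161, limma). Hoxa3, which is needed for thymus and parathyroid, was at 5.54 and 4.33 FPKM in Irx5KO, against 2.32 and 1.73 FPKM in WT (0.97, SE 0.188, adjusted p = 0.00546). Both genes were higher in each Irx5KO library than in either WT library, with ratios of means of 2.08 for Hoxa2 and 2.43 for Hoxa3.

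In the middle of HoxA the differences were larger, except at Hoxa4. Hoxa4, an axial patterning gene, was at 2.41 and 2.26 FPKM in Irx5KO, against 1.91 and 1.14 FPKM in WT, and did not pass (log2 change 0.42, 95% interval -0.01 to 0.85, adjusted p = 0.114). Hoxa5, which is needed for lung and airway development, was at 13.4 and 11.8 FPKM in Irx5KO, against 5.40 and 3.28 FPKM in WT. Its means were 12.6 ± 1.15 FPKM in Irx5KO and 4.34 ± 1.50 FPKM in WT (SD, n = 2 each), with a log2 change of 1.38 (SE 0.217, adjusted p = 0.00222), the largest of the family. It was called in all 14 settings. Hoxa6 was at 5.06 and 2.65 FPKM in Irx5KO, against 1.16 and 0.610 FPKM in WT (1.33, SE 0.256, adjusted p = 0.00521). Its ratio of means, 4.35, was the highest among the 18 genes. Hoxa7, reported in human keratinocytes to hold back differentiation genes, was the most abundant Hox gene, at 19.7 and 12.4 FPKM in Irx5KO, against 10.2 and 4.43 FPKM in WT (1.09, SE 0.330, adjusted p = 0.0312). The spread within each genotype was wide for Hoxa7, and WT replicate 1 came close to Irx5KO replicate 2. Its call was lost in 6 of the 14 settings, among them without WT replicate 2, without Irx5KO replicate 1 and under the median of ratios.

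The windows before 4 HoxA start sites are printed because they span the on and off parts of the cluster. They are 250 bases long, from RefSeq (GRCm38.p6, minus strand), which held such windows for 22 of the 39 Hox genes. Hoxa5 and Hoxa7 are the most abundant genes of the cluster, Hoxa3 holds the motif described next, and Hoxa10 (the farther upstream of its 2 windows) is a gene that was off. The windows are chr6:52213068-52213317, chr6:52204588-52204837, chr6:52218574-52218823 and chr6:52240855-52241104, each read 5′ to 3′ towards the start site, with every CG pair of bases in capitals.
Hoxa3: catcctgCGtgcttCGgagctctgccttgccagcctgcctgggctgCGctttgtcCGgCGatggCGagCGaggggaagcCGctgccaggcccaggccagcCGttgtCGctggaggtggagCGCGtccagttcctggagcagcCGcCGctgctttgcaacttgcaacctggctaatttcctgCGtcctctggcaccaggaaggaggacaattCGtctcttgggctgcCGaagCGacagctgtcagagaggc
Hoxa5: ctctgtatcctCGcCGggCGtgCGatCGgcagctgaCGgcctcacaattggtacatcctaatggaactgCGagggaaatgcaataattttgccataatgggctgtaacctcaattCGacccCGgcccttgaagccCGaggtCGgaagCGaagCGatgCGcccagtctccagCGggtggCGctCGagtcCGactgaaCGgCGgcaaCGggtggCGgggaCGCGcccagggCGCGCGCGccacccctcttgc
Hoxa7: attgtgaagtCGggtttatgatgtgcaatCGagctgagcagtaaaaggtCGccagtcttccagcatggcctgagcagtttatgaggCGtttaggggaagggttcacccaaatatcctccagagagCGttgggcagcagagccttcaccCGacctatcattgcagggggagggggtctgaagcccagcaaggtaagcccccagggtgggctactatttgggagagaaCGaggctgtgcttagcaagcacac
Hoxa10: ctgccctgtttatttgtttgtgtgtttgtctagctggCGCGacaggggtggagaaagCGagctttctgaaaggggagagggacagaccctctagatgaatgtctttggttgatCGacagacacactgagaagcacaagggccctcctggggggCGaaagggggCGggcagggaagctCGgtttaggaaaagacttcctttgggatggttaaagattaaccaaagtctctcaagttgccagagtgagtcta
The windows of Hoxa3 and Hoxa5 held 18 and 28 CG pairs, and those of Hoxa7 and Hoxa10 held 7 each. Over the family the CG count did not separate the genes on from those off, with a median of 13 for the 8 genes on (range 6 to 28) and 12.5 over 16 windows of the 14 genes off (range 2 to 35), against 6 over all 32851 windows. The palindrome ACANNTGT, to which Iroquois proteins bind, was searched on both strands and occurred in the Hoxa3 window alone, 17 bases before the start with the letters acagctgt, 1 of 24 Hox windows against 6.31% of all windows. TGATNNAT, a motif of Pbx with Hox proteins, occurred in 4 of the 24 (Hoxa2, Hoxb1, Hoxb8 and Hoxd11), against 7.68% of all. The matches of the 2 motifs lay in different windows. They are matches of letters, and no binding was measured.

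The HoxB genes lie on chromosome 11 (mm10, plus strand, Hoxb13 at 96194316 to Hoxb1 at 96368256), and 7 of them were on. All 7 were called higher in Irx5KO (26.9% of all rows tested were), with changes of 0.58 to 0.91 (median of all rows 0.26). Of these calls, Hoxb7 alone held when libraries were scaled by quantiles or by the median of ratios, and none held with no filter on level. Among the genes off, Hoxb9 overlapped between the genotypes and Hoxb1 lay lower in Irx5KO. Hoxb2, a hindbrain gene and the third in level of the family, was at 10.4 and 10.6 FPKM in Irx5KO, against 7.64 and 3.83 FPKM in WT (log2 change 0.83, SE 0.257, adjusted p = 0.0343, limma). Its Irx5KO libraries were close to each other and its WT libraries were not. Hoxb3, which acts with Hoxa3 in the neck and hindbrain, was at 6.18 and 5.98 FPKM in Irx5KO, against 3.62 and 2.84 FPKM in WT (0.75, SE 0.174, adjusted p = 0.0116). Hoxb4, known for expanding blood stem cells when overexpressed, was at 2.96 and 2.60 FPKM in Irx5KO, against 1.92 and 1.11 FPKM in WT (0.60, SE 0.196, adjusted p = 0.0404). For both genes the genotypes lay apart, Hoxb3 by the wider margin.

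Among the posterior genes of HoxB the ratios of means lay between 1.62 and 2.16. Hoxb5 was at 2.22 and 1.96 FPKM in Irx5KO, against 1.18 and 0.879 FPKM in WT (log2 change 0.61, SE 0.168, adjusted p = 0.0223). Hoxb6 was at 6.43 and 5.71 FPKM in Irx5KO, against 4.27 and 3.22 FPKM in WT (0.58, SE 0.183, adjusted p = 0.0356). Neither gene was called under the median of ratios or without either Irx5KO library. Hoxb7 was at 5.52 and 5.95 FPKM in Irx5KO, against 3.29 and 2.01 FPKM in WT (0.91, SE 0.204, adjusted p = 0.0101). This was the largest change in HoxB, and it was called in 12 of 13 settings. Hoxb8, a thoracic gene that in mouse also marks a lineage of microglia, was at 2.86 and 2.84 FPKM in Irx5KO, against 1.63 and 1.34 FPKM in WT (0.63, SE 0.164, adjusted p = 0.0175).

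In HoxC, on chromosome 15 (mm10, plus strand, Hoxc13 at 102921103 to Hoxc4 at 103036852), 2 of the 4 genes on were called higher, where 26.9% of all rows tested were. Hoxc4 was at 4.60 and 3.50 FPKM in Irx5KO, against 3.24 and 1.91 FPKM in WT, and did not pass (log2 change 0.51, 95% interval 0.02 to 1.01, adjusted p = 0.0940). It passed in TPM (adjusted p = 0.0208, limma) and without WT replicate 1 (adjusted p = 0.0150), and over its 13 settings the change ranged from 0.22 to 0.80. Hoxc8, a gene of thoracic identity, was at 6.70 and 5.77 FPKM in Irx5KO, against 5.11 and 3.29 FPKM in WT, and did not pass either (0.50, 95% interval 0.03 to 0.96, adjusted p = 0.0900). For both genes the genotypes lay apart by less than the gap between the WT replicates. Hoxc6, a thoracic gene that is also expressed in the mammary gland, was at 5.69 and 5.12 FPKM in Irx5KO, against 2.75 and 1.66 FPKM in WT (1.02, SE 0.202, adjusted p = 0.00602). It was called in 12 of 13 settings.

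Hoxc13, the hair and nail member of the family, was on while its neighbours in the cluster were silent. It was at 2.85 and 4.16 FPKM in Irx5KO, against 1.52 and 1.91 FPKM in WT (log2 change 0.72, SE 0.195, adjusted p = 0.0211, limma), and it was the gene for which WT replicate 2 exceeded WT replicate 1. Hoxc12, 7942 bases away, was at 0 and 0.0601 FPKM in Irx5KO, against 0.0578 and 0 FPKM in WT. Hoxc13 was called in 8 of 13 settings, and leaving out WT replicate 1 or Irx5KO replicate 2 ended the call, as did no filter and scaling by quantiles or by the median of ratios. Of 10 skin genes linked to Hoxc13 or the hair keratin programme, 5 were tested, 2 were higher and none lower (median 0.51), where 26.9% of all rows were called higher. Foxq1, a forkhead factor of the hair medulla downstream of Hoxc13 in mouse, was at 14.5 and 13.2 FPKM in Irx5KO, against 5.95 and 6.14 FPKM in WT (1.07, SE 0.165, adjusted p = 0.00201). Msx2, a homeobox gene needed for hair shaft differentiation, was at 2.312 and 2.309 FPKM in Irx5KO, against 1.41 and 1.30 FPKM in WT (0.49, SE 0.159, adjusted p = 0.0396). Foxn1, the nude gene and a Hoxc13 target, named after its values were seen, was at 4.86 and 4.80 FPKM in Irx5KO, against 3.69 and 1.89 FPKM in WT, and missed the threshold (adjusted p = 0.0517). Tchh, the trichohyalin gene of the inner root sheath and medulla, likewise named after its values were seen, lay lower, at 1.73 and 1.79 FPKM in Irx5KO, against 2.51 and 2.83 FPKM in WT (log2 change -0.41, adjusted p = 0.0752).

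The HoxD genes on chromosome 2 (mm10, plus strand, Hoxd13 at 74668310 to Hoxd1 at 74765142) were off as a cluster. Their 9 members summed to 0.791 and 0.722 FPKM in Irx5KO, against 0.420 and 0.572 FPKM in WT, most of it Hoxd8. Hoxd9, Hoxd10, Hoxd11 and Hoxd13, known from limb and tail development, never exceeded 0.0772 FPKM.

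Summed by cluster, the levels of HoxA, HoxB and HoxC were all higher in Irx5KO. HoxA summed to 53.4 and 39.0 FPKM in Irx5KO, against 24.1 and 13.1 FPKM in WT, a ratio of means of 2.48. HoxB summed to 37.4 and 36.2 FPKM in Irx5KO, against 24.0 and 16.1 FPKM in WT (ratio 1.83), and HoxC to 21.0 and 19.9 FPKM in Irx5KO, against 13.6 and 9.22 FPKM in WT (ratio 1.79). Over all 39 genes the sums were 112.6 and 95.9 FPKM in Irx5KO and 62.2 and 39.0 FPKM in WT. As a share of that sum within a library, which no scaling of whole libraries can change, HoxA held 47.4% and 40.7% in Irx5KO, against 38.8% and 33.5% in WT. The share of HoxB was 33.3% and 37.8% in Irx5KO, against 38.7% and 41.4% in WT, and that of HoxC 18.7% and 20.8% in Irx5KO, against 21.9% and 23.6% in WT. The genotypes lay apart for these 3 clusters, HoxA being higher and HoxB and HoxC lower in Irx5KO, although in each cluster the nearest libraries of the 2 genotypes differed by less than the replicates of a genotype did. HoxD held 0.703% and 0.753% in Irx5KO, against 0.676% and 1.47% in WT, with overlapping genotypes. The shares add up to the whole, so a larger share of HoxA comes with smaller ones elsewhere, and no test was made on these sums and shares.

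**Figure D4:**
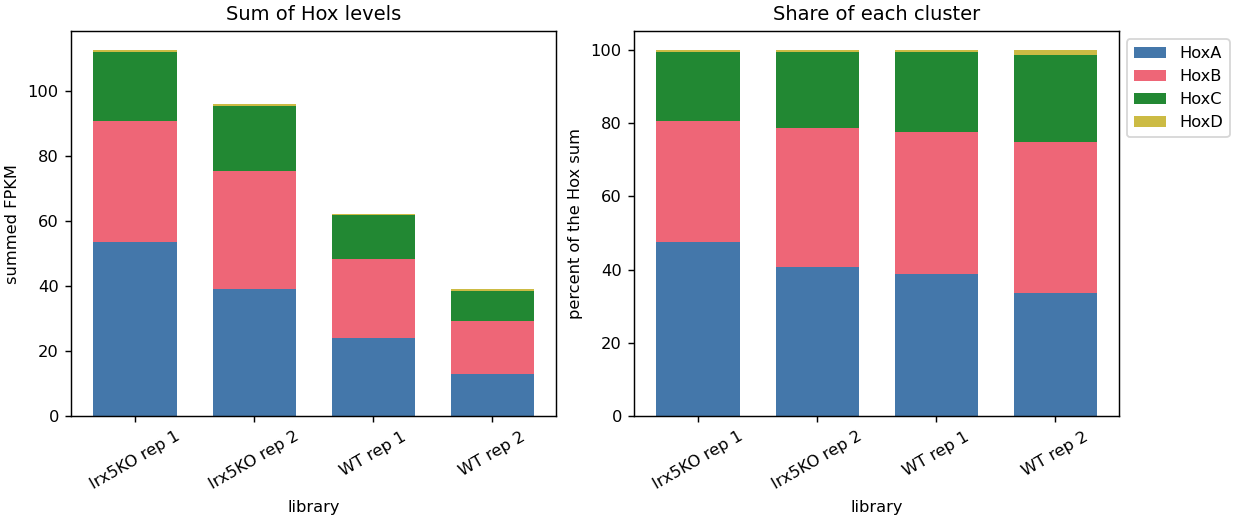
Summed FPKM of the Hox genes in each library, split by cluster (left), and the share of each cluster in percent of that sum (right). The sum is higher in both Irx5KO libraries (112.6 and 95.9) than in both WT libraries (62.2 and 39.0), and HoxA takes 47.4% and 40.7% in Irx5KO, against 38.8% and 33.5% in WT.

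By gene, 5 of the 18 took a larger share of the Hox sum in both Irx5KO libraries than in both WT libraries (among them Hoxa3, Hoxa5, Hoxa6 and Hoxc6), 5 a smaller share (Hoxa4, Hoxb4, Hoxb6, Hoxc4 and Hoxc8), and 8 overlapped. Hoxa5 held 11.9% and 12.3% of the sum in Irx5KO, against 8.69% and 8.40% in WT. Hoxc8 held 5.95% and 6.02% in Irx5KO, against 8.22% and 8.44% in WT. The gap between genotypes was several times the gap between replicates for both of these genes, in opposite directions. Both were picked from the genes that lay apart. With 2 libraries against 2, some genes lie apart by chance, and the shares are tied to each other through the sum. Shares of the Hox sum have no background over all rows, and these counts and gaps were not tested. By paralogue group, the ratio of summed means was 2.62 for group 5 and lowest among groups with genes on for group 4 (1.61) and group 8 (1.62), the groups that hold the 3 genes not called.

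Overlap between genes touches some of these values. Of the 18 genes on, 10 share no exon base with another annotated gene, and 8 of those 10 were called higher, where 26.9% of all rows were. Only Hoxa5, Hoxa6, Hoxb7 and Hoxc6 of those 10 were called under the median of ratios, where 10.5% of all rows were called higher. Another 7 of the 18 overlap an antisense gene, up to 52.9% of the exon bases of Hoxb3, which Hoxb3os covers. The sources used here do not state strand-specific counting, so reads of such partners cannot be told apart. Hoxaas3, the antisense gene over Hoxa7 and Hoxa3, was at 0.737 and 0.883 FPKM in Irx5KO, against 0.234 and 0.423 FPKM in WT.

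Of the genes for DNA-binding partners of Hox proteins, Pbx2 was higher in Irx5KO. The list of Pbx, Meis and Pknox cofactors had 7 of its 9 genes tested, with 1 higher, none lower and 6 not called, where 26.9% of all rows were called higher (median 0.02, against 0.26 for all rows). Pbx2 was at 18.2 and 18.1 FPKM in Irx5KO, against 9.68 and 11.2 FPKM in WT (log2 change 0.75, SE 0.168, adjusted p = 0.0100, limma). Meis1 was at 2.69 in both Irx5KO libraries, against 3.03 and 2.68 FPKM in WT (-0.06, 95% interval -0.43 to 0.31, adjusted p = 0.786). The genotypes overlapped for Meis1 and lay apart for Pbx2.

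Genes that activate Hox transcription changed in both directions. Of 14 tested of 18 listed, 6 were higher, 2 lower and 6 not called (median 0.46), where 26.9% of all rows were called higher and 9.22% lower. The strongest change was a decrease of Kdm6b, a demethylase that removes the Polycomb mark from histone H3, at 11.2 and 11.9 FPKM in Irx5KO, against 42.0 and 68.5 FPKM in WT (log2 change -2.13, SE 0.231, adjusted p = 3.77e-04). Dot1l, a histone H3 methyltransferase gene tied to active transcription, was at 7.06 and 6.20 FPKM in Irx5KO, against 12.9 and 20.4 FPKM in WT (-1.18, SE 0.223, adjusted p = 0.00493). Both fell in each Irx5KO library below either WT library. Kmt2a, the trithorax methyltransferase that maintains Hox expression (listed as Mll1), was at 8.68 and 6.16 FPKM in Irx5KO, against 3.80 and 4.79 FPKM in WT (0.66, SE 0.203, adjusted p = 0.0334). Among the genes of its partners, Men1 rose to 10.2 and 13.3 FPKM in Irx5KO, against 7.40 and 6.29 FPKM in WT (adjusted p = 0.0209), and Psip1 rose to 9.75 and 9.84 FPKM in Irx5KO, against 5.99 and 6.06 FPKM in WT (adjusted p = 0.0185), while Wdr5, named after its values were seen, was at 18.7 and 18.5 FPKM in Irx5KO, against 16.9 and 17.2 FPKM in WT (adjusted p = 0.585). The Cdx genes, which drive posterior Hox genes in the embryo, were listed at 0 in all 4 libraries (Cdx1, Cdx2 and Cdx4).

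Polycomb genes, whose products repress Hox clusters, included 7 that were higher and none lower among 24 tested of 26 listed, with 17 not called and a median of 0.26, the same as over all rows. That share of higher calls was near the 26.9% of all rows. Cbx2, a chromodomain subunit of the Polycomb repressive complex that compacts chromatin, was at 9.59 and 10.8 FPKM in Irx5KO, against 3.86 and 2.75 FPKM in WT (log2 change 1.39, SE 0.189, adjusted p = 0.00110). Ezh1, the methyltransferase of non-dividing cells, was at 24.2 and 25.0 FPKM in Irx5KO, against 11.4 and 10.3 FPKM in WT (1.11, SE 0.164, adjusted p = 0.00164). Its homologue Ezh2, the enzyme of dividing cells, was at 12.5 and 14.1 FPKM in Irx5KO, against 14.1 and 17.4 FPKM in WT, and did not pass (-0.22, 95% interval -0.63 to 0.18, adjusted p = 0.351). Of the other called genes, Pcgf2 was at 24.4 and 26.2 FPKM in Irx5KO, against 15.7 and 12.7 FPKM in WT (adjusted p = 0.00918). Mtf2, which recruits the methyltransferase complex to CG-rich DNA, was at 9.37 and 8.65 FPKM in Irx5KO, against 4.77 and 5.55 FPKM in WT (adjusted p = 0.0134). After median-of-ratios scaling, the 7 Hox-related lists together gave 5 higher and 4 lower calls among 59 genes, against 19 and 2 in the deposited FPKM. Over all rows, that scaling gave 1224 higher and 1629 lower calls among 11636, against 3127 and 1073 among 11643 in the deposited FPKM.

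Genes next to the clusters were examined as well. Of 13 listed, 8 were tested, 3 were higher and none lower (median 0.40), where 26.9% of all rows were called higher. The 3 lie beside HoxC or HoxD. Calcoco1, a coactivator and autophagy receptor gene beside HoxC, was at 52.8 and 63.0 FPKM in Irx5KO, against 20.9 and 20.0 FPKM in WT (log2 change 1.45, SE 0.175, adjusted p = 6.28e-04). Smug1, a DNA glycosylase gene beyond the other end of HoxC, was at 6.28 and 5.82 FPKM in Irx5KO, against 2.91 and 1.77 FPKM in WT (1.10, SE 0.201, adjusted p = 0.00424). Lnpk (listed as Lnp), which lies beyond the 5′ end of HoxD, was at 4.26 and 3.86 FPKM in Irx5KO, against 2.39 and 2.41 FPKM in WT (0.57, SE 0.163, adjusted p = 0.0251), although no HoxD gene was on. Skap2, at the 3′ end of HoxA and named after its values were seen, was at 37.9 and 38.6 FPKM in Irx5KO, against 37.4 and 36.1 FPKM in WT (0.05, 95% interval -0.32 to 0.43, adjusted p = 0.815).

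**Figure D5:**
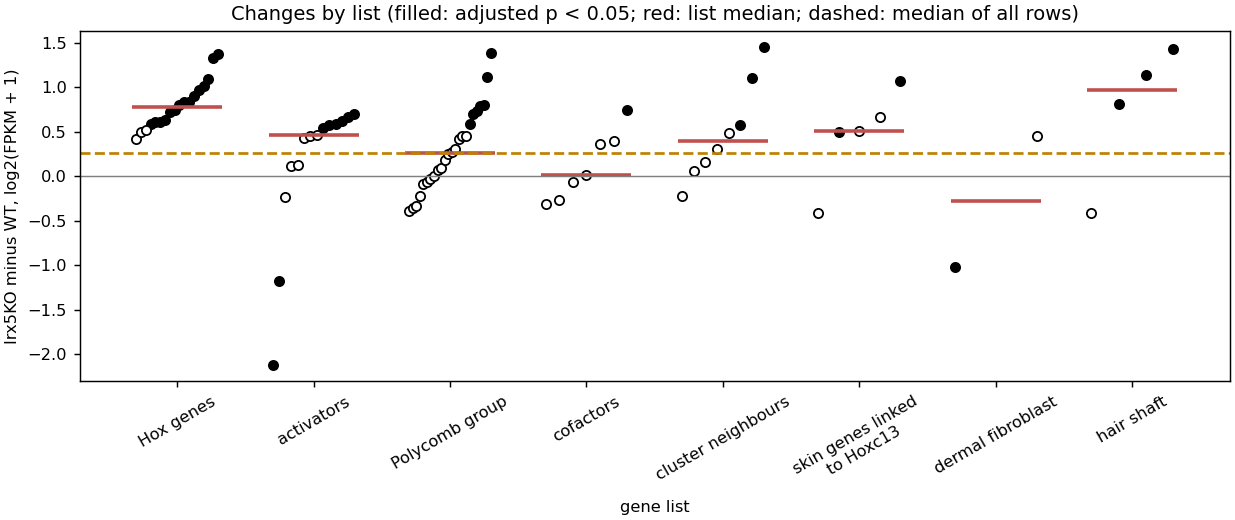
Log2 change (Irx5KO minus WT, n = 2 libraries each) of every tested gene in the Hox family and in the lists of activators, Polycomb genes, cofactors, cluster neighbours, skin genes linked to Hoxc13, dermal fibroblast markers and hair shaft genes. Filled points have an adjusted p below 0.05, red bars are list medians and the dashed line is the median of all rows tested, 0.26. The Hox median is 0.78, and the list medians are 0.46 for activators, 0.26 for Polycomb genes and 0.02 for cofactors. They are 0.40 for cluster neighbours, 0.51 for skin genes linked to Hoxc13 and -0.28 for the 2 fibroblast markers. The 4 hair shaft genes have a median of 0.97. Among them, Krt33a and Krt36 were under 1 FPKM in both WT libraries, so filtering on level had already fixed their direction. That median therefore cannot be weighed against the 0.26 of all rows.

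Markers of other skin cells were read beside the Hox values, since dermal cells also carry Hox codes. Of 12 dermal fibroblast markers 2 passed the filter. The list summed to 35.9 and 53.0 FPKM in Irx5KO, against 94.0 and 76.5 FPKM in WT, nearly all of it Vim (31.3 and 46.7 FPKM in Irx5KO, against 89.2 and 69.2 FPKM in WT), which other skin cells express too. Col1a1, the main dermal collagen gene, was at 0.302 and 0.396 FPKM in Irx5KO, against 0.685 and 1.07 FPKM in WT, and Twist2 was listed at 0 in both Irx5KO libraries, against 0.166 and 0.344 FPKM in WT. Fbln1, the other marker tested, was at 2.50 and 3.23 FPKM in Irx5KO, against 1.55 and 2.08 FPKM in WT, and did not pass (log2 change 0.46, adjusted p = 0.0802, limma). The 10 fibroblast markers that missed the filter stayed at or below 1.18 FPKM in every library. Col1a1, Col1a2, Col3a1, Pdgfrb, Twist2 and Vim lay lower in both Irx5KO libraries than in both WT libraries, and Fbln1 alone lay higher. The other markers, among them Dcn and Pdgfra, overlapped between the genotypes. Vim was called lower (log2 change -1.02, adjusted p = 0.0105, limma), where 9.22% of all rows were. The 7 dermal papilla markers summed to 5.07 and 3.76 FPKM in Irx5KO, against 4.29 and 6.64 FPKM in WT, 4 endothelial markers to 0.430 and 1.47 FPKM in Irx5KO, against 0.818 and 0.954 FPKM in WT, and 5 muscle markers to 5.27 and 4.84 FPKM in Irx5KO, against 5.53 and 4.20 FPKM in WT. None of these 3 sums separated the genotypes. Of the 2 papilla markers tested, Rspo3 was called higher, where 26.9% of all rows were. It was at 2.28 and 1.77 FPKM in Irx5KO, against 1.08 and 0.632 FPKM in WT (log2 change 0.71, adjusted p = 0.0183, limma). Prlr, the other one tested, was not called (log2 change -0.50, adjusted p = 0.125, limma). Crabp1 and Alpl, which missed the filter, lay lower in both Irx5KO libraries. The 4 Langerhans cell markers summed to 309.5 and 404 FPKM in Irx5KO, against 811 and 659 FPKM in WT, 7 melanocyte markers to 13.2 and 11.3 FPKM in Irx5KO, against 13.3 and 30.6 FPKM in WT, and 3 T cell markers to 67.7 and 74.8 FPKM in Irx5KO, against 100.3 and 42.1 FPKM in WT. The Langerhans sums were lower in both Irx5KO libraries than in both WT libraries. The melanocyte sums were as well, but Irx5KO replicate 1 (13.2 FPKM) and WT replicate 1 (13.3 FPKM) were nearly equal. Of the 7 melanocyte markers only Dct lay apart between the genotypes. The T cell sums overlapped. The 9 hair matrix and shaft genes summed to 12.5 and 10.6 FPKM in Irx5KO, against 6.05 and 5.36 FPKM in WT, with Shh at 0 in 3 of the 4 libraries. For 5 of the 9 both Irx5KO libraries lay above both WT libraries, among them Krt35 and Krt85, which missed the filter. The 54.3% of all rows covers only rows that passed it, so the 2 shares are of unlike sets. Of the 4 tested, Krt31, Krt33a and Krt36 were called higher, where 26.9% of all rows were, but Krt33a and Krt36 entered the test through the Irx5KO libraries alone and so had to differ. Tchh, the fourth, was lower in both Irx5KO libraries and was not called. The part of shifts in cell type in the Hox differences was not tested.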

How the data were processed

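RNA of back-skin epidermis was measured in 2 Irx5KO and 2 WT libraries. The deposited values are FPKM, made by the authors, in 1 table for the 4 samples. Bowtie2, DESeq2 and mm10 are named in the submitters' processing notes. How alignments became FPKM, and which annotation was used, is not given in the sources used here. GENCODE M21 (mm10) gave positions (1-based) and exon overlap by symbol, and list genes were also matched through older symbols. In the list of noncoding RNAs of the clusters, 10 of 19 genes were matched to a row.

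FPKM is not a count, so limma 3.58.1 (R 4.3.3) was fitted to log2(FPKM + 1) of all 4 libraries with an intensity trend, 2-sided, over rows with at least 1 FPKM in at least 2 libraries. The code was tested on simulated data. Depth was estimated from low values of transcripts over 600 bases, taking fragments as 200 bases long. Of values up to 10 fragments, 67.7% to 69.4% per library fell within 0.1 of a whole fragment, where chance gives 20%, so no count model was run.

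The members, lists and tests were chosen with earlier results of these data known. Every Hox gene is counted, though some genes are not reported here by name. Genes on are named with all libraries, other genes where they reached 0.1 FPKM, and list genes by up to 4 called members of smallest p plus Meis1, Ezh2 and Kmt2a. Exceptions are stated. Nothing in the labels says more than that the 4 samples are separate, so the p-values refer to the spread of these samples alone. Alternatives were no filter, a minimum mean of 5 FPKM, a pseudocount of 0.1, rescaling (median of ratios, TPM or quantiles), no trend, robust empirical Bayes, the replicate number as a block and leaving out each library.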

Additional observations from a re-analysis of the deposited data

How the results depend on the processing

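All 18 Hox genes on kept a positive change wherever they were fitted, over 13 alternatives, and 0 were called lower in any. Only the rescaling alternatives could have changed a sign, since both Irx5KO libraries lay above both WT libraries for all 18. The number called higher, 15 in the deposited FPKM, was 3 of 34 with no filter (Hoxa5 and Hoxd8 among them, against 6.98% of all rows), 3 of 4 with a minimum mean of 5 FPKM, where fewer genes were tested, 6 under the median of ratios, 6 under quantile normalization and 7 to 17 leaving out a library. It was 20 of 21 in TPM, where Hoxc5 and Hoxd8 joined the genes tested. Over all rows, the calls higher were 1289 with no filter, 1898 with that minimum mean, 1224 under the median of ratios, 5818 in TPM, 1522 under quantile normalization and 1246 to 4127 leaving out a library, and the calls lower 712 with no filter, 1629 under the median of ratios and 713 to 1162 leaving out a library. For the Hox-related lists together, with 19 higher and 2 lower of 59, the calls higher were 6 with no filter, 5 under the median of ratios, 35 in TPM, 8 under quantile normalization and 7 to 25 leaving out a library. The calls lower were 1 with no filter, 4 under the median of ratios and 4 under quantile normalization (1319 of all 11650 rows). The cause was not tested. The Irx5 change was -0.48 in TPM (adjusted p = 0.0594) and -0.73 to -0.66 leaving out a library, with the call lost without either Irx5KO library. The number of Hox genes on was 15 to 21 over its alternatives, and the HoxA sum stayed 1.91 to 3.53 times as high in Irx5KO as in WT leaving out a library. Replicate numbers are shared between the genotypes. Across all rows tested, same-numbered libraries did not deviate together from the means of their genotypes (correlation -0.07 over rows). Among the 18 Hox genes on, replicate 1 was above replicate 2 for 17 in WT and for 15 in Irx5KO. Over all rows tested it was above for 62.1% in WT, and the share in Irx5KO was not computed. With the replicate block 16 Hox genes were called higher (28.4% of all rows), Hoxc4 being the one added (adjusted p = 0.0325, limma), and 3301 rows were higher and 1166 lower. Leaving out a library leaves 1 sample in a genotype, assumed to vary like the other. Depth limits above all the genes under 0.1 FPKM, whose values rest on few fragments.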

Other observations

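Other genes that mark body position were nearly silent in this epidermis. Of 12 listed homeobox, T-box and related positional genes, Barx2 was the one that passed the filter on level, and Tbx5 and Barx1 were listed at 0 in all 4 libraries. Barx2, a homeobox gene expressed in skin and hair follicle and named after its values were seen, was at 52.8 and 69.3 FPKM in Irx5KO, against 55.3 and 43.3 FPKM in WT, and did not pass (log2 change 0.30, 95% interval -0.17 to 0.77, adjusted p = 0.281, limma). Its genotypes overlapped. Lmx1b, the dorsal limb gene, was at 0.200 and 0.301 FPKM in Irx5KO, against 0.235 and 0.131 FPKM in WT. Pitx1, the hindlimb gene, was at 0.0164 and 0.00846 FPKM in Irx5KO, against 0.00814 and 0.0294 FPKM in WT. Among 10 noncoding genes inside the Hox clusters that were matched to a row, none passed the filter. Hotair, the HoxC noncoding RNA known from posterior and distal human fibroblasts, was listed at 0 in all 4 libraries. The 6 microRNA rows of the clusters were also listed at 0. RNAs shorter than the fragments, taken as 200 bases long, cannot be judged by such values.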
